A study of Mus musculus with 27 samples.

Results

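The goblet cell mucus genes examined here were the 9 genes Muc2, Fcgbp, Clca1, Zg16, Tff3, Spink4, Agr2, Atoh1 and Spdef, each matched by its symbol to 1 Ensembl identifier among the 46078 gene rows of the count tables. All 9 passed the filter on low counts, and 16496 genes in all were tested. Epithelium scraped from the colon was sequenced from 27 male C57BL/6 mice, aged 28 days at the start and 56 days at the end, with 3 mice in each of 9 groups. The groups received sesame oil vehicle or TCDD by oral gavage, at 1 of 8 doses from 0.01 to 30 μg/kg, in 7 gavages that were 4 days apart over 28 days, and the labels name no transgene or other allele. TCDD is a persistent dioxin and a strong ligand of AhR, the aryl hydrocarbon receptor, which acts as a transcription factor once bound. Since whole scrapings were sequenced, fewer goblet cells and less RNA per goblet cell cannot be told apart in any value below.

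Goblet cells are secretory cells of the intestinal epithelium that release mucus onto the gut surface. In the colon the mucus is built on the gel-forming mucin Muc2, and other secreted proteins such as Fcgbp, Clca1 and Zg16 are major parts of it. The transcription factor Atoh1 directs crypt progenitors to the secretory fate, and Spdef acts after it in the maturation of goblet cells.

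The 9 genes together held 4.25 to 5.89% of the gene counts of a mouse (median 5.12%), and the gene counts totalled 9305441 to 14371035 per mouse (median 11651026). Cyp1a1, the classical AhR target, had 0 to 1 counts per mouse in vehicle, 550 to 1630 at 3 μg/kg, 10468 to 15749 at 10 μg/kg and 23969 to 29287 at 30 μg/kg, so the dose labels and the induction had the same order. The index barcodes recurred over the samples, so mice were assigned in sample order to a first set, or to a second where the barcode had been met before. The sets were inferred from the barcodes alone. The first set covered 16 mice (the vehicle group, the 4 lowest doses and replicate 1 at 1 μg/kg) and the second set the other 11, so that index set and dose cannot be told apart for 3, 10 and 30 μg/kg against vehicle. A clock score (mean log2 level of 9 clock genes that rose with dose minus that of 5 that fell) was -2.72 to -2.47 in vehicle and 1.53 to 2.19 at 30 μg/kg. Replicate 3 at 0.01 μg/kg stood apart from its group in this score, at 1.45 against -2.82 and -2.10 for the other mice of that dose.

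Promoters of 5 of the 9 genes were matched in RefSeq sequences of GRCm38.p6, and 4 are shown because they belong to the transcription factors that varied together over the mice and to the mucus proteins Muc2 and Fcgbp that varied inversely. Each run is the 250 bases before the start that RefSeq annotates, 5′ to 3′ on the strand of the gene. For Spdef this start lies a few bases downstream of the Ensembl start given with the gene, so the window reaches slightly into the Ensembl gene. Distances are counted from the RefSeq start. For Atoh1 (plus strand, chr6:64728875-64729124) and Spdef (minus strand, chr17:27728952-27729201) capitals mark GCGTG, the core of the AhR binding element, on either strand (CACGC on the other). For Muc2 (plus strand, chr7:141690090-141690339) and Fcgbp (plus strand, chr7:28070986-28071235) capitals mark CAGCTG, a form of the E-box, which reads the same on both strands.
Atoh1: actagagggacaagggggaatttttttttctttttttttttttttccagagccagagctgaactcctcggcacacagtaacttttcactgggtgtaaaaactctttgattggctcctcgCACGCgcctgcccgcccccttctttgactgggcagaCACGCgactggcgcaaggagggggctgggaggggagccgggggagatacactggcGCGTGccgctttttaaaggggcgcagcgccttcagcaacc
Spdef: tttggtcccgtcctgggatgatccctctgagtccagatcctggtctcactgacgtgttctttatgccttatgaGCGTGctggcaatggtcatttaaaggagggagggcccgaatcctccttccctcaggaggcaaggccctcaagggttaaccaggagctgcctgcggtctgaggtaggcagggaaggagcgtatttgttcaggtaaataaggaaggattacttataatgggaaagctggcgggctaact
Muc2: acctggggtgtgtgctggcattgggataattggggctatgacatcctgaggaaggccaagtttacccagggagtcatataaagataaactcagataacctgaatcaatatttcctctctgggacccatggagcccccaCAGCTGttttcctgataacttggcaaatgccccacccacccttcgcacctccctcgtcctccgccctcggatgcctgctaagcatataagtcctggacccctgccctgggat
Fcgbp: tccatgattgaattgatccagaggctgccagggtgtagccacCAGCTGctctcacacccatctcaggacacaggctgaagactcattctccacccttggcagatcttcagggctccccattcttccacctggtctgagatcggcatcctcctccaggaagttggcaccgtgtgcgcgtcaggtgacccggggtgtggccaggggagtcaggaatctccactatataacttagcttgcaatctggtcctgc

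The Atoh1 window held the AhR core 3 times, ending 127, 91 and 36 bases before the start, and the Spdef window held it 1 time, 173 bases before the start. The core stood in 28.2% of the 32851 promoter windows of the same length, and 2.77% of the windows held it 3 or more times. The Muc2 window held CAGCTG 1 time, 107 bases before the start, as did the Fcgbp window at 203 bases, against 13.0% of all windows, and other forms of the E-box were not searched. Both runs of letters were searched in every matched window. The Muc2 and Fcgbp windows held no AhR core, the Atoh1 and Spdef windows held no CAGCTG, and the Agr2 window held neither. The overlap of these motifs with bound sites was not measured here, and a match is only a run of letters.

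Levels of the 9 genes were compared per length, in RPKM, which scales the reads of a gene by its exonic length and by library size, over all 27 mice. Muc2 (ENSMUSG00000025515, chromosome 7, 141690340 to 141754693, plus strand of GRCm38) stood at 5297 ± 739 RPKM (SD, n = 27), rank 6 of the 16496 genes. It was followed by Clca1 at 1036 ± 344 RPKM, Fcgbp at 769 ± 180 RPKM, Zg16 at 665 ± 208 RPKM, Agr2 at 511 ± 96.6 RPKM and Tff3 at 465 ± 76.4 RPKM. Spink4 had 159 ± 47.7 RPKM, and the transcription factors Spdef and Atoh1 were lowest, at 58.8 ± 15.6 and 49.9 ± 10.2 RPKM. Muc2 exceeded Clca1 in 27 of 27 mice, Clca1 exceeded Fcgbp in 26, Tff3 exceeded Spink4 in 27 and Spink4 exceeded Spdef in 27. The neighbours Fcgbp and Zg16, Zg16 and Agr2, Agr2 and Tff3, and Spdef and Atoh1 differed by less than the SD of their log2 ratio over the mice. The first of each pair exceeded the second in 19, 22, 17 and 22 of the 27 mice. This order was pooled over the doses, and at 30 μg/kg the mean of Zg16 (1051 ± 112 RPKM) was above those of Clca1 (915 ± 233) and Fcgbp (675 ± 86.1). The mean of Tff3 (602 ± 73.1) was likewise above that of Agr2 (475 ± 73.4 RPKM, SD, n = 3 each). In vehicle the means were 1411 ± 265 RPKM for Clca1, 938 ± 123 for Fcgbp and 532 ± 93.2 for Zg16. Muc2 alone took 3.77% of the gene counts on average.

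Across the doses, the 9 genes did not move as 1 group. A gene was called when the adjusted p of edgeR's quasi-likelihood test was under 0.05 and the fold change was at least 1.5. At the 6 doses up to 3 μg/kg (0.01 and 0.03, then 0.1 and 0.3, then 1 and 3) 0 of the 9 genes were called against vehicle, where 0% of all genes were called at each of the 4 lowest doses, 0.2% at 1 μg/kg and 0.697% at 3 μg/kg. With DESeq2 the count was 0 at 5 of these 6 doses (up to 0.491% of all genes) and 1 at 3 μg/kg (Atoh1, with 1.52% of all genes). With limma voom it was 0 at all 6 (0.321% of all genes at 3 μg/kg). At an unadjusted p under 0.05 the counts were 0, 0, 5, 0, 1 and 5 of 9 in the order of these doses and 3 and 4 at 10 and 30 μg/kg, against 6.35%, 4.64%, 6.37%, 5.19%, 9.8% and 16% of all genes, then 17.8% and 27%. At 10 μg/kg 1 gene was called, Zg16, where 1.78% of all genes were (0.812% higher and 0.97% lower). The top dose had 2 called genes, Zg16 and Atoh1, both higher at 30 μg/kg, where 6.16% of all genes were called (2.95% higher and 3.21% lower). At 30 μg/kg the 9 genes had a median log2 fold change of -0.015, with 4 genes higher and 5 lower, and the median over all genes was -0.0022. Scaled to pan-epithelial genes, the 2 calls at 30 μg/kg were 1 higher and 1 lower, with 7.83% of all genes called.

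**Figure D1:**
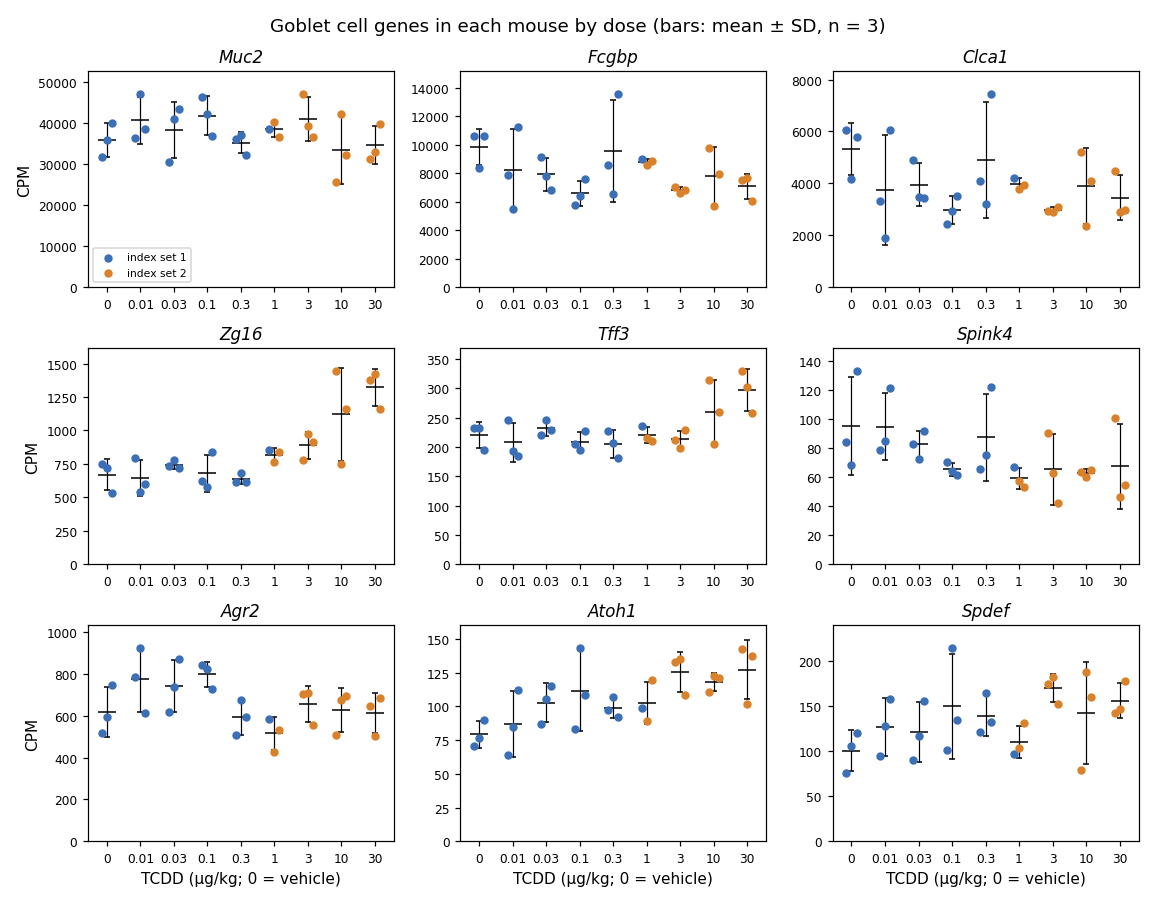
CPM, counts scaled to library size (vertical axes, starting at 0), of the 9 genes in each of the 27 mice by TCDD dose (horizontal axes, in μg/kg), with 1 panel per gene, the mean ± SD of each group of 3 mice as black bars and the index set as colour. Zg16 in the 3 mice at 30 μg/kg sat between 1161 and 1422 CPM, above the 535 to 753 CPM of the vehicle-treated mice, while Muc2 overlapped between all doses and vehicle.

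Among the proteins of the mucus layer, Muc2, the gel-forming mucin itself, was not called at any dose, and its groups overlapped with vehicle at each of them. Levels from here on are in CPM, counts scaled to library size but not to length, and are compared only within a gene. Muc2 had 31703, 36043 and 40019 CPM in the vehicle-treated mice and 31203, 32964 and 39911 CPM at 30 μg/kg. Single mice over all doses lay between 25763 and 47126 CPM, both of them in the second index set, at 10 and 3 μg/kg. Muc2 differed at 30 μg/kg from vehicle by -0.05 on the log2 scale (standard error, SE, of 0.18), with an interval of 2 SE from -0.41 to 0.31 and an adjusted p = 0.894 by edgeR, so that smaller changes than these bounds could not be told from none.

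Zg16 (ENSMUSG00000049350, chromosome 7, 127050156 to 127087328, minus strand), a lectin-like protein that binds the wall of Gram-positive bacteria and keeps them from the epithelium, was called at 10 and 30 μg/kg. Vehicle-treated mice had 753, 719 and 535 CPM, and the mice at 0.01 μg/kg had 796, 541 and 599 CPM. The values were 733, 777 and 717 CPM at 0.03 μg/kg, 619, 581 and 838 CPM at 0.1 μg/kg, and 618, 680.0 and 618 CPM at 0.3 μg/kg. Each of these 4 doses overlapped the vehicle range. The values were 854, 765 and 837 CPM at 1 μg/kg, 777, 971 and 915 CPM at 3 μg/kg, 1444, 751 and 1164 CPM at 10 μg/kg, and 1379.7, 1422 and 1161 CPM at 30 μg/kg. All mice at 1, 3 and 30 μg/kg lay above every vehicle-treated mouse, as was found for 8.78%, 13.1% and 14.5% of all genes, and replicate 2 at 10 μg/kg lay within the vehicle range.

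Zg16 rose 1.98-fold at 30 μg/kg (0.98 on the log2 scale, SE 0.18, adjusted p = 0.00149) and 1.67-fold at 10 μg/kg (0.74, SE 0.18, adjusted p = 0.0250, both edgeR). The log2 fold change of Zg16 was 0.41 at 3 μg/kg (adjusted p = 0.266) and 0.29 at 1 μg/kg (adjusted p = 0.630). The exact permutation test (two-sided) at 30 μg/kg gave p = 0.1, the smallest that 3 mice against 3 allow. From 3 to 30 μg/kg, both within the second index set, Zg16 was 1.49-fold higher (0.57 on the log2 scale, SE 0.18, adjusted p = 0.181), with every mouse at 30 μg/kg above every mouse at 3 μg/kg. Such separation towards higher values was found for 7.97% of all genes. With a term for the index set the value at 30 μg/kg was 1.07 (adjusted p = 0.0605) and with the clock score as a covariate 1.19 (adjusted p = 0.0629), so the size was kept and the call was lost. At 10 μg/kg the call ended with the index set or the clock score in the fit (adjusted p = 0.207 and 0.204), with only the 2 groups in the fit (adjusted p = 0.113), with the pan-epithelial scaling (0.50 on the log2 scale, under the fold change of 1.5), and with limma voom (0.71). It also ended without vehicle replicate 2 or 3 or without replicate 1 or 3 at 10 μg/kg.

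Fcgbp (ENSMUSG00000047730, chromosome 7, 28071236 to 28120862, plus strand) and Clca1 (ENSMUSG00000028255, chromosome 3, 145003817 to 145032776, minus strand) are an abundant mucus protein with repeated von Willebrand domains and a secreted protease that acts on mucus structure. Fcgbp had 10592, 8354 and 10593 CPM in vehicle, 7019, 6653 and 6804 CPM at 3 μg/kg and 7504, 7696 and 6043 CPM at 30 μg/kg. Clca1 had 6038, 4184 and 5769 CPM in vehicle, 2929.6, 2896 and 3109 CPM at 3 μg/kg and 4472, 2911 and 2986 CPM at 30 μg/kg. Both genes lay below every vehicle-treated mouse in all mice at 0.1 and 3 μg/kg, and Fcgbp did so at 30 μg/kg, where 15.2% of all genes were separated towards lower values (11.5% at 3 μg/kg and 5.95% at 0.1 μg/kg). Neither gene was called at any dose. At 30 μg/kg Fcgbp had a log2 fold change of -0.48 (SE 0.24, adjusted p = 0.196) and Clca1 one of -0.62 (SE 0.33, adjusted p = 0.229). The highest values of both genes, 13563 and 7440.3 CPM, were those of replicate 3 at 0.3 μg/kg, and the lowest, 5506 and 1898 CPM, those of replicate 2 at 0.01 μg/kg.

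Of the secreted peptides, Tff3 (ENSMUSG00000024029, chromosome 17, 31125306 to 31129646, minus strand) is the trefoil factor of goblet cells and takes part in epithelial repair. Its values were 233, 233 and 195 CPM in vehicle, 212, 199 and 228 CPM at 3 μg/kg, 315, 205 and 259.7 CPM at 10 μg/kg and 329.7, 303 and 258 CPM at 30 μg/kg. All 3 mice at 30 μg/kg lay above the vehicle range and above the mice at 3 μg/kg, as was found for 14.5% and 7.97% of all genes. At the top dose Tff3 had a log2 fold change of 0.43 (SE 0.13, adjusted p = 0.0365, edgeR), which passed the test, as did 11% of all genes, but not the fold change of 1.5. From 3 to 30 μg/kg it was 0.48 (SE 0.13, adjusted p = 0.107). For 30 μg/kg against vehicle the adjusted p of Tff3 ran from 0.0181 to 0.173 over the settings that kept all mice. It ran from 0.0299 to 0.150 in the 6 edgeR fits that each left out 1 mouse. At the 5 doses below 3 μg/kg single mice had 181 to 247 CPM.

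Spink4 (ENSMUSG00000028415, chromosome 4, 40920052 to 40931395, plus strand), a small secreted protein of the Kazal type inhibitor family, varied most between mice of a group after Clca1 and Spdef, with a within-group SD of 0.38 on the log2 scale. Its values were 84.4, 68.6 and 133 CPM in vehicle, 67.2, 57.5 and 53.3 CPM at 1 μg/kg, 63.7, 60.3 and 65.03 CPM at 10 μg/kg and 101, 46.7 and 54.7 CPM at 30 μg/kg. The mice at 1 and 10 μg/kg lay below the vehicle range, where 7.4% and 13.1% of all genes did so, and those at 30 μg/kg overlapped it. At the top dose its log2 fold change was -0.50 (SE 0.28, adjusted p = 0.266). It was -0.91 without replicate 1 at 30 μg/kg (adjusted p = 0.0426) and then met the call.

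Agr2 (ENSMUSG00000020581, chromosome 12, 35992907 to 36004087, plus strand), a protein disulfide isomerase of the endoplasmic reticulum needed to make Muc2, had 516, 592 and 749 CPM in vehicle and 648, 505 and 685 CPM at 30 μg/kg. The groups overlapped, with a log2 fold change of -0.015 (SE 0.17, interval of 2 SE from -0.36 to 0.33, adjusted p = 0.968). Its mean was highest at 0.1 μg/kg and lowest at 1 μg/kg, and single mice ran from 429 to 924 CPM.

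Of the transcription factors, Atoh1 (ENSMUSG00000073043, chromosome 6, 64729125 to 64731245, plus strand, a gene of 1 exon) had 70.7, 76.8 and 89.7 CPM in the vehicle-treated mice. The values were 63.6, 84.3 and 112 CPM at 0.01 μg/kg, 86.8, 106 and 115 CPM at 0.03 μg/kg, 83.5, 143 and 108 CPM at 0.1 μg/kg and 97.5, 107 and 91.9 CPM at 0.3 μg/kg. The groups at the 3 lowest of these doses overlapped the vehicle range. The values were 98.4, 89.3 and 119.5 CPM at 1 μg/kg, 133, 135 and 108 CPM at 3 μg/kg, 111, 122 and 121 CPM at 10 μg/kg and 142, 102 and 137 CPM at 30 μg/kg. All mice at 0.3, 3, 10 and 30 μg/kg lay above every vehicle-treated mouse, as was found for 6.12%, 13.1%, 12.1% and 14.5% of all genes.

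Atoh1 rose 1.61-fold at 30 μg/kg (0.68 on the log2 scale, SE 0.18, adjusted p = 0.0200, edgeR). The value was already 0.67 at 3 μg/kg (adjusted p = 0.0733) and 0.58 at 10 μg/kg (adjusted p = 0.0888), and the difference from 3 to 30 μg/kg was 0.02 (SE 0.18, interval from -0.35 to 0.38, adjusted p = 0.984). At 3 and at 10 μg/kg Atoh1 was called with no filter, with only the 2 groups compared and with DESeq2. These settings called 0.59 to 1.56% of all genes at 3 μg/kg and 1.18 to 2.64% at 10 μg/kg. The exact permutation p at 30 μg/kg was 0.1. The call at 30 μg/kg ended without vehicle replicate 1 or 2 or without replicate 1 or 3 at 30 μg/kg, with log2 fold changes of 0.59 to 0.82 over the 6 fits that each left out 1 mouse. With a term for the index set the value was 0.60 (adjusted p = 0.326), and with the clock score as a covariate the sign turned, to -0.24 (adjusted p = 0.686). Its call ended with limma voom too (0.67).

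Spdef (ENSMUSG00000024215, chromosome 17, 27714352 to 27728955, minus strand), an ETS family factor, had 76.1, 106 and 120.4 CPM in vehicle, 174 (replicate 1), 183 and 153 CPM at 3 μg/kg, 79.4, 188 and 161 CPM at 10 μg/kg and 143, 147 and 178 CPM at 30 μg/kg. The mice at 3 and 30 μg/kg lay above the vehicle range (13.1% and 14.5% of all genes), as did those at 0.3 μg/kg (6.12%), while replicate 1 at 10 μg/kg was close to the lowest vehicle-treated mouse. The log2 fold change was 0.75 at 3 μg/kg (SE 0.28, adjusted p = 0.172) and 0.63 at 30 μg/kg (SE 0.28, adjusted p = 0.141), and Spdef was not called. At 30 μg/kg 4 of the 9 genes lay above the vehicle range in all mice (Zg16, Tff3, Atoh1 and Spdef), against 14.5% of all genes.

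**Figure D2:**
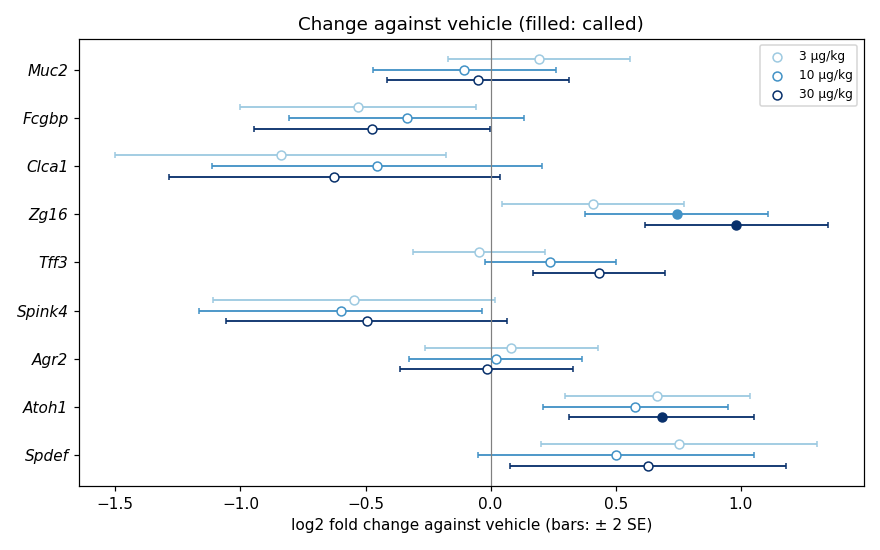
Log2 fold change against vehicle (horizontal axis) of the 9 genes (vertical axis) at 3, 10 and 30 μg/kg, with bars of 2 SE to each side and filled points for called values. Only Zg16 at 10 and 30 μg/kg and Atoh1 at 30 μg/kg are filled, and the bars of Muc2 and Agr2 span 0 at each of the 3 doses.

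Over the dose rank, from vehicle to 30 μg/kg in 27 mice, 4 of the 9 genes had a slope with an adjusted p under 0.05, where 23.4% of all genes did (11.8% higher and 11.6% lower). The log2 slope per dose step was 0.119 for Zg16 (SE 0.018, adjusted p = 3.37e-05), 0.075 for Atoh1 (SE 0.017, adjusted p = 0.00148) and 0.043 for Tff3 (SE 0.013, adjusted p = 0.0201). Spink4 had a falling slope of -0.076 (SE 0.025, adjusted p = 0.0249). Scaled to pan-epithelial genes, 6 genes passed, Zg16 with a higher level (0.089) and Agr2, Muc2, Clca1, Spink4 and Fcgbp with lower levels. Under that scaling 7361 genes (44.6% of all) passed and the median slope of all genes moved from -0.0017 to -0.033. Adjusted for the index set, only 11 of the 16496 genes and 0 of the first 4 passed. The slopes were then 0.080 for Zg16 (adjusted p = 0.273), 0.078 for Atoh1 (adjusted p = 0.231), 0.041 for Tff3 (adjusted p = 0.472) and -0.045 for Spink4 (adjusted p = 0.696). Adjusted for the clock score, 39 of the 16496 genes and again 0 of the 4 passed. Those slopes were 0.13 for Zg16 (adjusted p = 0.115), 0.045 for Atoh1 (adjusted p = 0.493), 0.075 for Tff3 (adjusted p = 0.172) and -0.12 for Spink4 (adjusted p = 0.196). Without replicate 2 at 30 μg/kg 2 genes passed, Zg16 and Atoh1, with 18.9% of all genes. A test of any difference among the 9 groups called Zg16 alone (adjusted p = 0.00126), where 7.35% of all genes were called. From 3 to 10 and from 3 to 30 μg/kg 0 of the 9 genes were called by edgeR (0.0485% and 0.461% of all genes), DESeq2 (0.135% and 1.11%) or limma voom (0.0303% and 0.23%). An unadjusted p under 0.05 was found for 1 and 2 of the 9 genes in these comparisons, against 4.8% and 11% of all genes.

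The balance between the genes was also followed as the log2 ratio of each gene to Muc2 in the same mouse, in which library size cancels. The ratio of Zg16 to Muc2 was -5.76 ± 0.42 in vehicle and -4.71 ± 0.34 at 30 μg/kg (SD, n = 3 each), a difference of 1.04 (exact permutation p = 0.1, the smallest possible). The ratio of Atoh1 to Muc2 was -8.82 ± 0.040 in vehicle and -8.10 ± 0.29 at 30 μg/kg, a difference of 0.73, and that of Spdef was -8.49 ± 0.18 and -7.79 ± 0.020, a difference of 0.70 (SD, n = 3 each, exact permutation p = 0.1 for both). The ratio of Clca1 to Muc2 was 0.58 lower at 30 μg/kg on the same scale, with overlapping groups (exact permutation p = 0.2). The differences were 0.48 for Tff3, -0.42 for Fcgbp and -0.47 for Spink4 (exact permutation p = 0.2, 0.3 and 0.3). The ratio of Agr2 to Muc2 differed by 0.04 (exact permutation p = 0.8).

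Over the 27 mice, 3 pairs of genes varied most closely together in their log2 levels, of all 36 pairs (Pearson's r and Spearman's rho with 100000 permutations, adjusted over the 36 pairs). Fcgbp and Clca1 were the closest pair, with r = 0.95 and rho = 0.91 (permutation p = 1e-05 for both, the smallest possible, adjusted p = 0.00012). Leaving out the 2 mice with the most extreme Fcgbp gave r = 0.93, and r was 0.97 in the 16 mice of the first index set and 0.84 in the 11 of the second, and 0.95 for deviations from the group means. Zg16 and Tff3 had r = 0.86 and rho = 0.76 (permutation p = 1e-05 and adjusted p = 0.00012 for both), with 0.79 without the 2 farthest mice, 0.82 and 0.93 within the index sets, and 0.82 for deviations. Atoh1 and Spdef had r = 0.77 and rho = 0.80 (permutation p = 1e-05 and adjusted p = 0.00012 for both), with 0.71 without the 2 farthest mice, 0.84 and 0.58 within the index sets, and 0.76 for deviations. These 3 relations thus held within groups of the same dose.

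Muc2 was lower in mice with higher Clca1, Fcgbp, Zg16 or Tff3. With Clca1 it had r = -0.64 and rho = -0.63 (permutation p = 0.0003 and 0.00055, adjusted p = 0.0027 and 0.00495), with -0.63 without the 2 farthest mice and -0.73 and -0.77 within the index sets. With Fcgbp it had r = -0.58 and rho = -0.58 (permutation p = 0.00171 and 0.00162, adjusted p = 0.00982 and 0.00972), with -0.57 without the 2 farthest mice and -0.71 and -0.64 within the index sets. With Zg16 it had r = -0.56 (permutation p = 0.00221, adjusted p = 0.00994) and rho = -0.42 (permutation p = 0.0293, adjusted p = 0.0754), with -0.48 without the 2 farthest mice and -0.38 and -0.82 within the index sets. With Tff3 it had r = -0.57 and rho = -0.49 (permutation p = 0.00191 and 0.00989, adjusted p = 0.00982 and 0.0356), with -0.46 without the 2 farthest mice and -0.18 and -0.80 within the index sets. Agr2 went the other way, with r = 0.58 and rho = 0.61 against Muc2 (permutation p = 0.00153 and 0.00097, adjusted p = 0.00982 and 0.00698), 0.55 without the 2 farthest mice, and 0.78 and 0.32 within the index sets.

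The position of the scraping along the colon was followed by a Hox score, the first principal component of 25 Hox genes (69.5% of their variance), which is higher towards the distal colon. The mice formed separate clusters in it, with 18 mice at -4.62 to -0.012 and 9 mice at 1.79 to 5.09, so relations were computed within each cluster, in the same way for the clock score, and adjusted over the 36 relations. No relation to the Hox score passed the adjustment. Muc2 had r = -0.69 and rho = -0.60 in the 18 mice (permutation p = 0.00143 and 0.0108, adjusted p = 0.0515 and 0.0969), with -0.47 without the 2 farthest mice and -0.81 and -0.53 within the index sets. In the 9 mice Muc2 had r = -0.81 and rho = -0.73 (exact permutation p = 0.00662 and 0.0311, adjusted p = 0.0777 and 0.16), with -0.75 without the 2 farthest mice. Clca1 had r = 0.48 and rho = 0.35 in the 18 mice (permutation p = 0.0439 and 0.153, adjusted p = 0.158 and 0.368), which was 0.12 without the 2 farthest mice, and r = 0.71 and rho = 0.72 in the 9 mice (exact permutation p = 0.0326 and 0.0369, adjusted p = 0.13 and 0.166), which was 0.73 without the 2 farthest mice. The score was -1.47 to 3.56 in vehicle and -0.44 to 3.17 at 30 μg/kg. With the score as a covariate Zg16 and Atoh1 were still called at 30 μg/kg, and Clca1 was called as well (-0.68 on the log2 scale, adjusted p = 0.0497), with 7.71% of all genes called.

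The clock score also separated the mice, into 14 mice at -2.82 to -0.42 (vehicle to 0.3 μg/kg) and 13 mice at 0.90 to 2.19 (the mice at 1 to 30 μg/kg and replicate 3 at 0.01 μg/kg), so that it cannot be told apart from a low or high dose over most mice. Within the 14 mice, all of the first index set, both transcription factors ranked higher in mice with a higher score. Atoh1 had r = 0.53 and rho = 0.80 there (permutation p = 0.0538 and 0.00107, adjusted p = 0.176 and 0.0193), with r = 0.70 without the 2 farthest mice. Spdef had r = 0.61 and rho = 0.83 (permutation p = 0.0217 and 0.00049, adjusted p = 0.112 and 0.0176), with r = 0.62 without the 2 farthest mice. Only the rank correlations passed the adjustment. The score also followed dose within these 14 mice, at -2.72 to -2.47 in vehicle and -1.22 to -0.42 at 0.3 μg/kg. These relations therefore cannot be told apart from dose either. Within the 13 mice Atoh1 had r = 0.65 and rho = 0.45 (permutation p = 0.0134 and 0.13, adjusted p = 0.0943 and 0.352), with 0.37 without the 2 farthest mice and 0.79 in the 11 mice of the second index set. Zg16 had r = -0.22 and rho = -0.35 in the 14 mice (permutation p = 0.457 and 0.214, adjusted p = 0.717 and 0.432) and r = 0.40 and rho = 0.40 in the 13 mice (permutation p = 0.178 and 0.182, adjusted p = 0.377 and 0.409), with -0.24 and 0.032 without the 2 farthest mice. The part of the time of collection in these values was not tested.

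**Figure D3:**
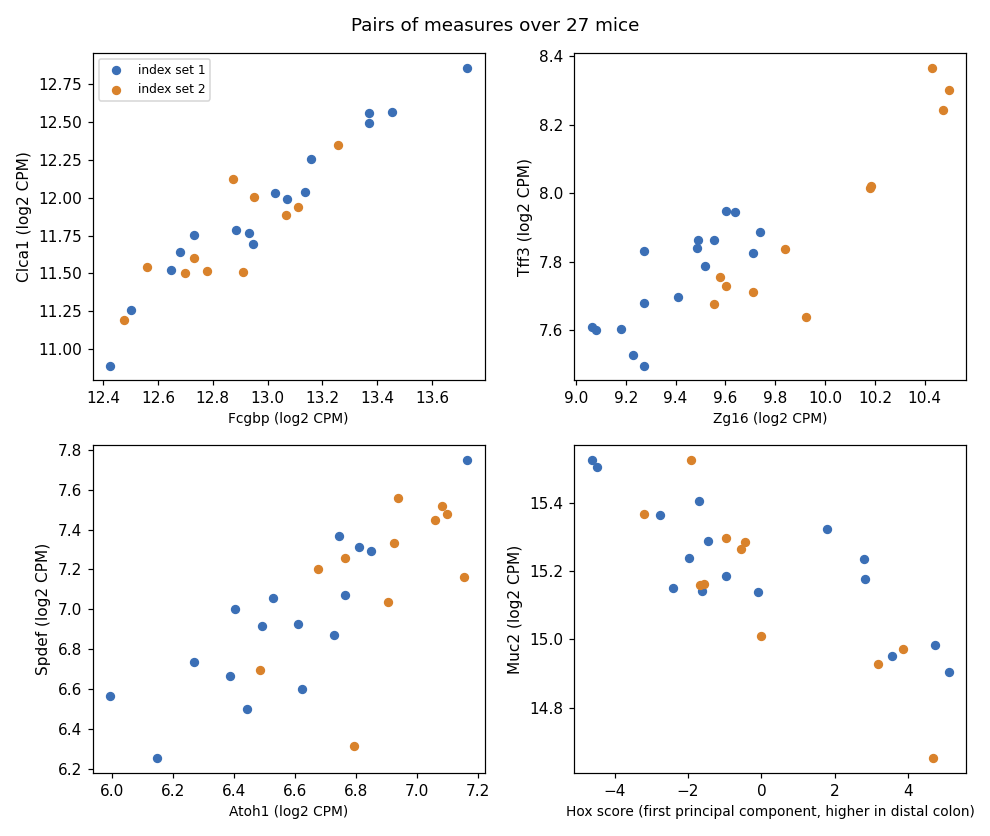
Log2 CPM of Clca1 against Fcgbp, Tff3 against Zg16, Spdef against Atoh1, and of Muc2 against the Hox score, with 1 point per mouse (27 mice) and the index set as colour. The first 3 panels rise (r = 0.95, 0.86 and 0.77), with the 5 mice of highest Zg16, at 10 and 30 μg/kg, apart at the top of the second panel, and the panel of Muc2 shows the clusters of 18 and 9 mice in the Hox score.

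The genes whose levels were most like each member over the 27 mice, by Pearson's r as a description, differed from member to member. Zg16 was followed most closely by P2ry4, a receptor for extracellular nucleotides (r = 0.95), Rab27a, a small GTPase of secretory granules (r = 0.90), and Gcnt1, which builds branches of O-glycans (r = 0.88). Muc2 was followed by Txndc5, a disulfide isomerase (r = 0.91), Tpd52 (r = 0.88) and Vipr2, a receptor for vasoactive intestinal peptide (r = 0.88). Agr2 was followed by Rpn1, a subunit of the oligosaccharyltransferase (r = 0.87), Cgref1 (r = 0.86) and Serp1, a protein of the endoplasmic reticulum (r = 0.86). Clca1 came next to Fcgbp and then St3gal6, a sialyltransferase (r = 0.87), and Myo5c, a myosin (r = 0.81), and Fcgbp next to Clca1 and then Synj2 and Klc1 (r = 0.82 for both). Atoh1 was followed by Entpd7, Bmp2k and Sec24a (r = 0.81, 0.80 and 0.80), Spdef by Sidt1, Pafah1b2 and Fam43a (r = 0.83, 0.82 and 0.82), Tff3 by Zg16, Sgpl1 and Mcur1 (r = 0.86, 0.83 and 0.83), and Spink4 by Pla2g4c, Bag1 and Rplp2 (r = 0.75, 0.72 and 0.70). For the mean of the 9 standardised levels the closest genes had r = 0.74 for Dusp7, 0.73 for Eif1b and 0.65 to 0.70 for the next 8 genes, Srp72, Cntn1, Pja2, Rpl27a, Rps6, Pstk, Ptprm and Nedd4.

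Other genes of the goblet cell program were counted in lists. Of 11 regulators of secretory fate, 0 were higher and 1 was lower at the threshold at 30 μg/kg, and the list had a median of -0.13 on the log2 scale. Over all genes 2.95% were called higher and 3.21% lower at this dose. The 1 gene was Dll4, a Notch ligand of secretory progenitors, with 15.1, 24.5 and 23.8 CPM in vehicle and 11.2, 13.0 and 11.4 CPM at 30 μg/kg (-0.83 on the log2 scale, SE 0.17, adjusted p = 0.00432, edgeR). Of 15 tested genes of mucin folding and glycosylation, 1 was called higher, Gcnt1, with 80.8, 82.7 and 55.4 CPM in vehicle and 120.6, 151 and 102 CPM at 30 μg/kg (0.77, SE 0.17, adjusted p = 0.00691), and 0 lower, with a median of 0.10. Of 6 tested membrane mucins 0 were called in either direction at 30 μg/kg, with a median of 0.016. Dll4 and Gcnt1 lost their calls with the clock score as a covariate (adjusted p = 0.233 and 0.232) and with limma voom, and Gcnt1 with a scaling to pan-epithelial genes (0.58). Over the settings that kept all mice the log2 value stayed at -1.13 to -0.73 for Dll4 and at 0.58 to 1.13 for Gcnt1.

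A list of other products of goblet cells also held Tff2 and Muc6, which are best known from the stomach. Of its 13 tested genes 1 was called higher and 4 lower at 30 μg/kg (2.95% and 3.21% of all genes), with a median of 0.25. Best2, a bicarbonate channel of colonic goblet cells, had 19.7, 13.6 and 14.8 CPM in vehicle and 50.9, 48.1 and 40.9 CPM at 30 μg/kg (1.54 on the log2 scale, SE 0.46, adjusted p = 0.0324). Its adjusted p was 0.0560 to 0.102 with each of the 6 mice left out. Its call also ended with the index set (2.31, adjusted p = 0.0982), with the clock score (0.35, adjusted p = 0.869) and with limma voom. Ang4, an antimicrobial ribonuclease, had 246, 164 and 368 CPM in vehicle and 13.95, 2.93 and 4.22 CPM at 30 μg/kg (-5.17, SE 0.77, adjusted p = 0.000162), and close relatives of this gene may share its reads. Retnlb, an antibacterial resistin-like protein, had 130.3, 70.2 and 269.6 CPM in vehicle and 32.6, 45.1 and 42.9 CPM at 30 μg/kg (-1.96, SE 0.58, adjusted p = 0.0315), and its call ended in 5 of the 6 fits that each left out 1 mouse, with the smallest change without vehicle replicate 3 (-1.32, adjusted p = 0.184). It also ended with the index set (-2.84, adjusted p = 0.134), the clock score (-3.49, adjusted p = 0.0502) and limma voom. Tff2, a trefoil factor of the stomach, had 2 to 139 counts in vehicle and 0 to 2 at 30 μg/kg, and its call had an adjusted p = 0.0204. The call ended without vehicle replicate 2, which had the 139 counts (adjusted p = 0.370), without replicate 1, 2 or 3 at 30 μg/kg, and with the index set (adjusted p = 0.0576), the clock score (adjusted p = 0.0794) and limma voom. Muc6, a gastric mucin, is the other gene that was called lower (-1.85, adjusted p = 0.0309). Its levels were 3.79 to 7.95 CPM in vehicle and 0.863 to 2.34 CPM at 30 μg/kg. The call ended in 4 of the 6 fits that left out a mouse and with the index set (-1.60, adjusted p = 0.444), the clock score (-0.62, adjusted p = 0.784) and limma voom.

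**Figure D4:**
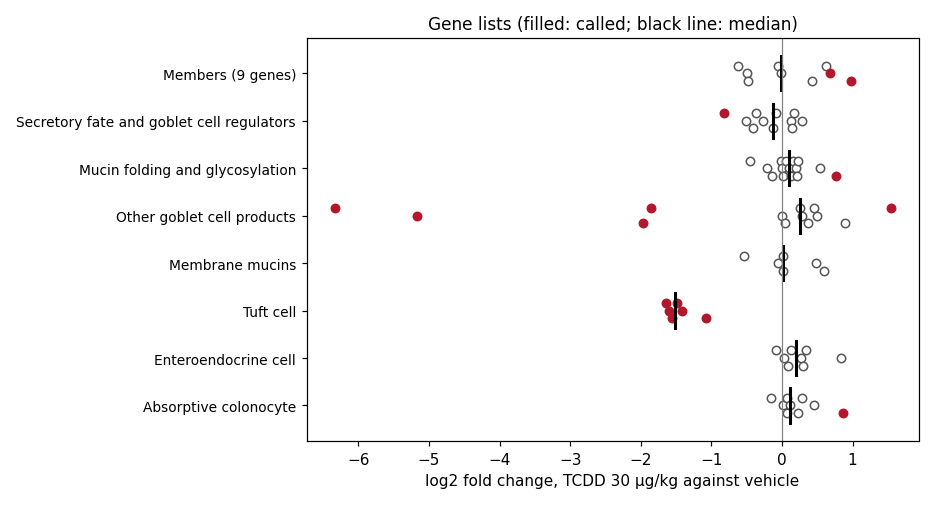
Log2 fold change at 30 μg/kg against vehicle (horizontal axis) of each tested gene in 8 lists (vertical axis), filled where called, with the median of a list as a black line. The median of the 9 members is -0.015 and that of the tuft cell list -1.52, and the lowest points among the other goblet cell products are Tff2, whose call ended without 1 vehicle-treated mouse among other fits, and Ang4.

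Markers of other cells in the scrapings were counted in the same way, against the 6.16% of all genes called at 30 μg/kg. At 30 μg/kg 6 of 6 tested tuft cell genes were called lower (median -1.52), and their summed level was 81.1 to 97.3 CPM in vehicle and 25.01 to 36.6 CPM at 30 μg/kg. Of 8 enteroendocrine genes 7 were higher and 0 were called, and of 9 absorptive genes 8 were higher and 1 was called. Of 7 crypt stem cell genes 6 were lower and 2 were called, Lgr5 (-1.40, adjusted p = 6.06e-05) and Axin2 (-0.69, adjusted p = 0.00246), and of 5 proliferation genes 5 were lower and 1 was called. All 8 muscle and stroma genes were higher (median 2.19), 1 of them called, with summed levels of 96.7 to 130 CPM in vehicle and 131 to 699.6 CPM at 30 μg/kg. These genes also had medians above vehicle at some low doses, with 0 called. Their medians were 1.11 at 0.01 μg/kg (7 of 8 higher), 1.11 at 0.03 μg/kg (8 of 8) and 1.27 at 0.3 μg/kg (8 of 8). Their summed levels there were 97.3 to 306, 115 to 334 and 131 to 360 CPM. At 0.1 μg/kg the summed level was 80.4 to 225 CPM. At 1 μg/kg it was 46.3 to 343 CPM, with a median of 47.2 CPM, below the vehicle range. Of 7 immune cell genes 5 were higher and 0 were called, and of 4 deep crypt and Paneth cell genes 4 were higher and 0 were called. Of 7 pan-epithelial genes 6 were higher (median 0.21) and 0 were called. Scaled to these epithelial genes, under which the median of all genes at 30 μg/kg was -0.18 on the log2 scale, Zg16 was still called (0.80), Fcgbp was called lower (-0.66), and Atoh1 was not called (0.52, adjusted p = 0.123). The part of cell makeup in the values of the 9 genes was not tested.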

How the data were processed

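Colonic epithelium scrapings of 27 mice were sequenced from NuGEN Ovation Mouse libraries. For every mouse the authors deposited raw whole-number read counts per gene. The submitters' processing notes name FastQC 0.11.3, Trimmomatic 0.33, TopHat2 2.1.0, SAMtools 1.2.0, HTSeq 0.6.1, DESeq and GRCm38, while the annotation release and the use of strand are not given in the sources used here. Reads on no feature (29.1 to 33.3% of a table) and with several alignments (30.7 to 37.1%) were left out, so genes with close copies can be undercounted. In all 27 pairs of mice within a group the counts differed beyond sampling noise, and each mouse was 1 replicate.

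Genes were filtered by filterByExpr (edgeR 4.0.16, R 4.3.3, minimum count 10), scaled by TMM factors and tested by the quasi-likelihood test of edgeR in 1 fit over all 9 groups, with Benjamini-Hochberg adjustment over 16496 genes. Log2 CPM used a prior count of 2. In simulated counts for 30 μg/kg against vehicle (16247 genes), 86% of 4-fold and 69% of 2-fold changes were recovered with 6 other calls. Permutation tests used scipy 1.17.1. Coordinates are from GENCODE M21 on GRCm38. Zg16 overlaps 2 noncoding genes on the other strand, of which 1 had 0 counts and 1 is not listed in the count tables.

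The 9 genes and the lists were chosen with earlier results of these data known. Named were the 9 genes, in each other list at most the 4 called genes with the largest change at 30 μg/kg, the 3 genes most like each member, the 10 most like their mean, and Cyp1a1. Best2, the fifth called gene of its list, was named after its values were seen. The alternatives were RLE factors, a scaling to pan-epithelial genes, DESeq2 1.42.0, no filter, voom of limma 3.58.1 (where a call needed a posterior probability of 0.8 or more), fits of just the compared groups, fits without single mice, terms for index set, Hox score and clock score, the adjusted p alone and log10 dose. A scaling without the 9 genes was added after the data were seen.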

Additional observations from a re-analysis of the deposited data

How the results depend on the processing

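The groups held 3 mice each, whole scrapings were sequenced, and the index set followed the dose, so that fits with an index set term rest on the mice at 1 μg/kg. Fits with the clock score lean on replicate 3 at 0.01 μg/kg. No paired analysis was possible because every mouse belongs to 1 group and a replicate number only names a mouse. Of the log2 values of single genes under settings that kept all mice, 569 kept their direction and side of the threshold, 28 turned sign, 18 passed newly and 37 no longer passed. Of those without 1 mouse, 495 were kept, 24 turned sign, 3 passed newly and 33 no longer passed. Where no other cause is given, the cause was not tested.

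Counts of the 9 genes follow, each with the share of all genes called under that setting. The number of the 9 genes called at 3 μg/kg (0, with 0.697% of all genes) was 1 with no filter (0.59%), 3 with only the 2 groups compared (1.56%; Spdef, Clca1 and Atoh1) and 1 with DESeq2 (1.52%). At 10 μg/kg (1, with 1.78%) it was 0 with the pan-epithelial scaling (5.96%), 2 with no filter (1.18%), 0 with the index set (0.352%), 0 with the clock score (0.139%), 0 with limma voom (0.576%) and 2 with DESeq2 (2.64%). With only the 2 groups compared (1.81%) it stayed at 1, but Atoh1 was called in place of Zg16. At 30 μg/kg (2, with 6.16%) it was 0 with the index set (4.43%), 0 with the clock score (2.56%), 1 with limma voom (1.32%), 3 with the Hox score (7.71%, Clca1 added) and 3 with the adjusted p alone (11%, Tff3 added). For any difference among the groups (1, with 7.35%) it was 4 with no filter (5.31%), 0 with the index set (0.333%) and 0 with the clock score (0.576%). For the slope (4, with 23.4%) it was 0 with the index set (0.0667%), 7 with the Hox score (26.4%), 0 with the clock score (0.236%) and 6 with the pan-epithelial scaling (44.6%). With each mouse left out in turn the counts were 0 to 1 at 10 μg/kg (0.969 to 1.35% of all genes), 1 to 2 at 30 μg/kg (3.51 to 6.45%), 1 to 2 for any group (5.37 to 8.06%) and 2 to 5 for the slope (18.9 to 26.5%). They remained 0 at the other doses (0 to 0.576%), from 3 to 10 μg/kg (0.0297 to 0.0475%) and from 3 to 30 μg/kg (0.196 to 0.845%).

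Under the pan-epithelial scaling the median of all genes was -0.23, -0.17, -0.25 and -0.18 at 1, 3, 10 and 30 μg/kg. With it the log2 value turned sign for Tff3 (-0.22), Spdef (-0.096) and Muc2 (-0.13) at 1 μg/kg, for Agr2 at 3 μg/kg (-0.087) and for Agr2 (-0.23) and Tff3 (-0.0055) at 10 μg/kg. Adjusted for the index set, it turned for Spdef at 1 μg/kg (-0.060), Tff3 at 3 μg/kg (0.11), Agr2 at 30 μg/kg (0.28) and the slope of Agr2 (0.00026). With the Hox score it turned for Tff3 at 3 μg/kg (0.0049), Agr2 at 30 μg/kg (0.00090) and, from 3 to 30 μg/kg, for Spdef (0.018), Clca1 (-0.070), Spink4 (-0.036) and Fcgbp (-0.12). With the clock score it turned for Spdef at 1, 3, 10 and 30 μg/kg (-0.65, -0.094, -0.35 and -0.24), for Atoh1 at the same doses (-0.46, -0.23, -0.32 and -0.24) and from 3 to 30 μg/kg (-0.010), for Tff3 at 3 μg/kg (0.23), and for Agr2 at 30 μg/kg (0.12) and in its slope (0.013).

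In the 6 fits that each left out 1 mouse, these values near 0 took both signs. At 1 μg/kg Tff3 ran from -0.076 to 0.050 and Spdef from -0.032 to 0.28, and at 3 μg/kg Agr2 ran from -0.025 to 0.24 and Tff3 from -0.13 to 0.0018. At 10 μg/kg Agr2 ran from -0.084 to 0.18 and Muc2 from -0.31 to 0.060, and at 30 μg/kg Agr2 ran from -0.12 to 0.15 and Muc2 from -0.16 to 0.035. From 3 to 30 μg/kg the ranges were -0.20 to 0.022 for Agr2, -0.015 to 0.32 for Clca1, -0.37 to 0.36 for Spink4, -0.011 to 0.15 for Fcgbp and -0.079 to 0.15 for Atoh1.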
